A study of Mus musculus with 4 samples.

Results

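Gm8126, Gm9732, Gm8127 and 1700001F09Rik are 4 genes with clone names that lie next to each other on mouse chromosome 14. They were chosen because their counts were lower in testis without Fam170a than in wild-type testis, so every level and fold change of the 4 between genotypes is a description and carries no test. They are 4 of the 22274 genes in the deposited count table. The table's symbol column holds no name for any of the 4, and all 4 were found by their Ensembl identifiers (ENSMUSG00000090634, ENSMUSG00000115483, ENSMUSG00000090713 and ENSMUSG00000095384). All 4 passed the filter on low counts.

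The study sequenced poly(A) RNA of adult mouse testis from wild-type (WT) animals and from Fam170a knockout (KO) animals, with 2 libraries per genotype. The series was made to ask what Fam170a does in spermiogenesis, the remodelling of round haploid spermatids into sperm. Neither the strain, the knocked-out allele nor any treatment is given in the labels, and for KO replicate 2 the knocked-out gene is written as Fam171a. Whether replicate libraries were made from different animals is not stated, and the spread behind each p-value may therefore be technical only. Total counts were 26029374 and 35494303 in WT replicates 1 and 2 and 34740160 and 41684437 in KO replicates 1 and 2. Fam170a had 2240 and 3510 counts in WT and 1 count in each KO library.

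Clone names (Gm numbers for predicted genes and Rik names for RIKEN cDNA clones) are placeholders and carry no function, and no role is given here for any of the 4. Multi-copy families of this kind arise when a stretch of chromosome is duplicated repeatedly, which leaves genes whose transcripts are nearly the same letter for letter. Chromosome 14 of the mouse carries such a family, the takusan genes, described in mouse neurons and related in part to Dlg5, a scaffold protein gene. In RefSeq takusan is a synonym of 2610042L04Rik, whose transcript was 77.1% identical to that of Gm9732 over the aligned stretch.

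In GENCODE M21 on GRCm38 the 4 genes lie within 89.2 kb and are annotated as protein-coding. Gm8126 lies at chr14:43258649-43266799 on the plus strand, with 5 exons and 594 coding bases. Gm9732 lies at chr14:43275036-43306011 on the plus strand, with 4 exons and 329 coding bases, and RefSeq lists it as a long non-coding RNA. Gm8127 lies at chr14:43288312-43293832 on the minus strand, with 5 exons and 633 coding bases. 1700001F09Rik lies at chr14:43342383-43347811 on the minus strand, with 5 exons and 552 coding bases. The whole of Gm8127 lies inside Gm9732 on the opposite strand, and 321 exonic bases belong to both. Whether reads were counted by strand is not given, so reads from those bases cannot be assigned to either gene.

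A coding exon of 132 bases occurs in all 4 genes, the longest length that a whole coding exon of each shares. This exon was matched by length alone and compared base by base without alignment. It is printed 5′ to 3′ on the coding strand from the GENCODE M21 transcripts (GRCm38), and capitals mark the 61 positions at which the 4 do not all have the same base. The exon is at chr14:43260686-43260817 in Gm8126 (exon 3, plus strand), chr14:43299846-43299977 in Gm9732 (exon 2, plus strand), chr14:43291071-43291202 in Gm8127 (exon 3, minus strand) and chr14:43345349-43345480 in 1700001F09Rik (exon 3, minus strand).
Gm8126: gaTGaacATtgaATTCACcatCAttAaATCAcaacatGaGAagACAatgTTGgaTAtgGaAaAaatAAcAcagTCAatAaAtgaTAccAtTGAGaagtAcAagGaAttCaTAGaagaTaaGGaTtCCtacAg
Gm9732: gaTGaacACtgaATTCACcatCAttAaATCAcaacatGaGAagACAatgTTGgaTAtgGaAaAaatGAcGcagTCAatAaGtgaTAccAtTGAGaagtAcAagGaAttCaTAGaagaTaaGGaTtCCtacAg
Gm8127: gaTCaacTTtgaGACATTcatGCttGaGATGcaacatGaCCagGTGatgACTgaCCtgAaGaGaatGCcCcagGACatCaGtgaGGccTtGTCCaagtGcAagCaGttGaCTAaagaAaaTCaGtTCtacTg
1700001F09Rik: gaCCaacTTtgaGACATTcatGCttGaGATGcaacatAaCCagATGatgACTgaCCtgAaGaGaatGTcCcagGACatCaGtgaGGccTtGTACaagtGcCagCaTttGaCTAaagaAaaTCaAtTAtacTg

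The 4 copies of this exon form 2 pairs. The exons of Gm8126 and Gm9732, on the plus strand, differed at 4 of 132 positions and were 97.0% identical. Those of Gm8127 and 1700001F09Rik, on the minus strand, differed at 9 positions and were 93.2% identical. Between the pairs 55 to 58 positions differed, and identity was 56.1% to 58.3%. The same exon, identical in every base, also occurs in other genes: in 1 other gene for Gm8126, in 3 for Gm9732, in 23 for Gm8127 and in 2 for 1700001F09Rik.

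How many letters of each transcript occur nowhere else limits how well its reads can be told from those of other genes. Of all 100-base stretches of the transcript, 59.9% in Gm8126 and 61.8% in Gm9732 were found in no other gene's transcripts. In Gm8127 the share was 16.9%, and in 1700001F09Rik it was 17.1%. With 150-base stretches the shares were 73.1%, 75.3%, 22.5% and 25.0% in the same order. How the authors treated reads that match several genes is not given. Among the relatives described below, Gm3542 and Gm9603 have identical transcripts and identical counts in every library (113, 154, 162 and 182), and so do Gm16434 and Gm6676 (106, 154, 163 and 190). Separate levels of near-identical genes are therefore uncertain, and the level of a gene is given below also together with its near copies.

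All 4 genes were lower in both KO libraries than in both WT libraries. Levels are counts per 1e6 reads (CPM) scaled by the trimmed mean of M-values (TMM), and fold changes are those fitted by edgeR's quasi-likelihood model. In bulk tissue, fewer cells that express a gene and less of its RNA per cell cannot be told apart.

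Gm8126 had 203 counts in WT replicate 1 and 236 in WT replicate 2, against 71 and 96 in KO replicates 1 and 2. The WT libraries were both high and the KO libraries both low, with no overlap. Its mean level was 6.99 ± 1.15 CPM (SD, n = 2) in WT and 2.26 ± 0.268 CPM in KO, or -1.62 ± 0.21 as a log2 fold change (SE), which leaves 32.4% of the WT level.

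Gm9732, the closest of the 3 others to Gm8126 in sequence, was the least abundant of the 4 and had the largest difference. It had 69 and 91 counts in WT and 9 and 5 in the KO libraries, so its KO level rests on few reads. Its mean was 2.52 ± 0.191 CPM (SD, n = 2) in WT and 0.195 ± 0.0954 CPM in KO, or -3.68 ± 0.40 as a log2 fold change, which leaves 7.76% of the WT level.

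Gm8127, which lies inside Gm9732 on the other strand, had 208 and 290 counts in WT and 120 and 140 in the KO libraries. In CPM both KO libraries lay below both WT libraries, and the replicates of each genotype lay close together. Its mean level was 7.79 ± 0.285 CPM in WT and 3.54 ± 0.0515 CPM in KO (SD, n = 2), or -1.14 ± 0.16 as a log2 fold change. That left 45.4% of the WT level, the smallest of the 4 differences.

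1700001F09Rik, at the far end of the group, was by far the most abundant of the 4. It had 5012 and 7141 counts in WT and 2420 and 2870 in the KO libraries. The mean level was 190 ± 4.04 CPM in WT and 71.9 ± 1.88 CPM in KO (SD, n = 2), with no overlap between genotypes. Its log2 fold change was -1.40 ± 0.08, which leaves 37.9% of the WT level.

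**Figure D1:**
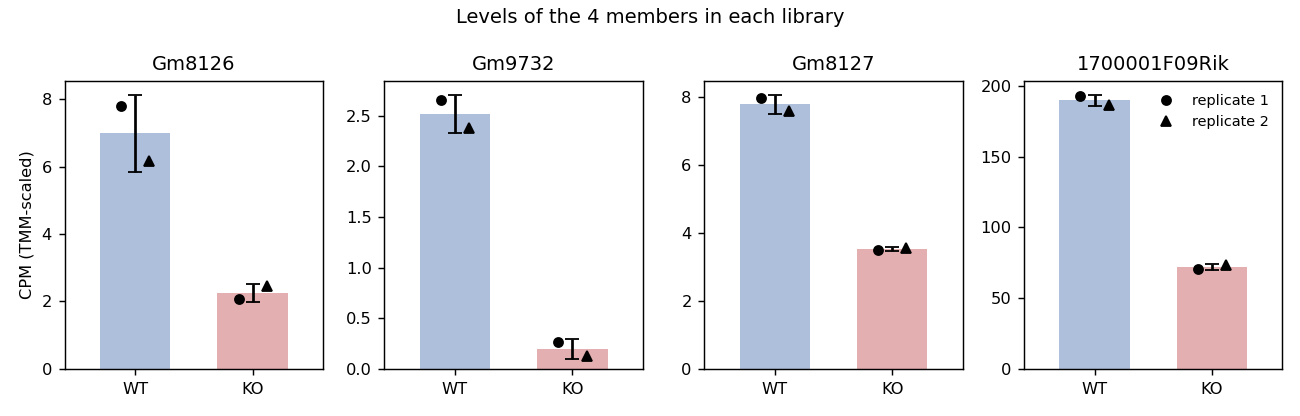
Level of each of the 4 genes in TMM-scaled CPM (vertical axes, each from 0 on its own scale) in WT and KO testis. Bars are means of 2 libraries, error bars are SDs, and circles and triangles are replicates 1 and 2. In every panel both KO points lie below both WT points, and 1700001F09Rik (190 against 71.9 CPM) is far above the others.

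edgeR's quasi-likelihood test placed 4 of the 4 below an adjusted p of 0.05, where it placed 0.454% of all 15636 tested genes there with a lower level in KO (0.908% in either direction). Both KO libraries lay below both WT libraries in 27.9% of all tested genes. The 4 were chosen from this same contrast, so nothing is read from either count. The count did not hold in every setting: 0 of the 4 passed without KO replicate 1, 1 without KO replicate 2, and 0 with the replicate number as a block. DESeq2 placed 4 of the 4 past the threshold, where it placed 4.98% of its 12604 genes lower and 3.04% higher (8.02% in all). limma-voom placed 3 of the 4 there, against 0.441% of all genes lower and 0.454% higher (0.895% in all). The fold changes themselves varied less, and all 4 were negative in each of 13 settings. They ran from -1.79 to -1.50 for Gm8126, from -4.26 to -3.24 for Gm9732, from -1.25 to -1.12 for Gm8127 and from -1.51 to -1.37 for 1700001F09Rik.

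Per kilobase of exon, the order of the levels was the same in all 4 libraries. 1700001F09Rik stood first, at a mean of 215 CPM per kb in WT and 81.4 CPM per kb in KO. Gm8127 came next, at 5.46 and 2.48 CPM per kb, and Gm8126 followed at 3.96 and 1.28 CPM per kb. Gm9732 was last, at 0.945 and 0.0733 CPM per kb. Within a genotype no library of a gene overlapped the libraries of its neighbour in this order, although Gm8127 and Gm8126 were near each other in WT (5.60 and 5.32 against 4.42 and 3.50 CPM per kb).

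Summed over the 4 genes there were 5492 and 7758 counts in WT and 2620 and 3111 in the KO libraries. That was 0.0211% and 0.0219% of all WT counts, against 0.00754% and 0.00746% of all KO counts. The sum was 207 ± 5.67 CPM in WT and 77.9 ± 2.104 CPM in KO (SD, n = 2), a log2 ratio of -1.41, or 2.66-fold lower in KO. It follows 1700001F09Rik, which supplied 91.3% and 92.0% of the reads of the 4 in WT and 92.4% and 92.3% in KO.

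The makeup of the sum differed mainly in Gm9732. Its share of the reads of the 4 was 1.26% (95% Wilson interval 0.994 to 1.59) and 1.17% (0.956 to 1.44) in WT. In KO it was 0.344% (0.181 to 0.652) and 0.161% (0.0687 to 0.376), which its larger fold change implies. Gm8127 made up 3.79% and 3.74% in WT and 4.58% and 4.50% in KO. Gm8126 made up 2.71% to 3.70% in all 4 libraries. These intervals cover counting error only.

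Each of the 4 has near copies elsewhere on chromosome 14, defined as transcripts at least 95% identical to it over at least 80% of its length. Gm8126 has 5 of them, Gm9732 has 7, Gm8127 has 32 and 1700001F09Rik has 10. The copies were not used in choosing the 4 genes, but they share the libraries and possibly reads with them.

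The 10 near copies of 1700001F09Rik were higher in KO, in the direction opposite to the gene itself. All 10 had both KO libraries above both WT libraries, a pattern found in 29.4% of all tested genes. Their log2 fold changes ran from 0.25 to 0.75. None passed edgeR's test after adjustment over all genes (adjusted p 0.0817 to 0.217). At an unadjusted p under 0.05, 9 of the 10 were higher, where 1838 of all 15636 tested genes were. DESeq2 called 5 of the 10 higher, beside 3.04% of its genes, and limma-voom called 0.

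Gm3676, whose transcript is 99.1% identical, had 1278 and 1719 counts in WT and 2294 and 2615 in the KO libraries. Its mean level was 47.0 ± 2.92 CPM in WT and 66.8 ± 0.123 CPM in KO (SD, n = 2), or 0.51 ± 0.09 as a log2 fold change with an adjusted p of 0.0817 in edgeR. BC061237, 96.0% identical and the most abundant of the copies, had 2501, 3649, 4480 and 4850 counts in the same order. Its levels were 95.8 ± 0.434 and 127 ± 4.88 CPM, or 0.41 ± 0.08 as a log2 change (adjusted p by edgeR 0.0874). Gm10376, 99.2% identical and among the most abundant genes near the 4, had 1466, 2223, 2840 and 2938 counts, and its log2 fold change was 0.46 ± 0.09 (adjusted p by edgeR 0.0892). Gm10377, the closest copy at 99.4% identity, had 173 and 438 counts in WT and 581 and 539 in KO, and its log2 fold change was 0.75 ± 0.27 (adjusted p by edgeR 0.171). In each of these the KO libraries were the higher ones in CPM, without overlap. Gm3676, BC061237 and Gm10377 were singled out after their values were seen.

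The lower level of 1700001F09Rik in KO thus stood beside higher levels of its copies, and the sum of both was nearly the same in the 4 libraries. The 10 copies alone summed to 382 and 395 CPM in WT and 549 and 517 CPM in KO, a log2 ratio of 0.45. With 1700001F09Rik included, the 11 genes summed to 575 and 582 CPM in WT and 619 and 590 CPM in KO, a log2 ratio of 0.06. Means were 579 ± 5.08 CPM and 605 ± 20.7 CPM (SD, n = 2). With total counts in place of TMM, a check added after the values were seen, the copies alone were still higher in KO (log2 ratio 0.35, 10 of 10 copies without overlap). The sum of the 11 then had a log2 ratio of -0.04, with 575 and 627 CPM in WT and 611 and 555 CPM in KO, so its sign depends on the scaling.

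Both parts of this sum, 1700001F09Rik and its copies, differed between the genotypes. The share of 1700001F09Rik follows in part from how it was chosen, so nothing is read from it. 1700001F09Rik held 33.5% (95% Wilson interval 32.7 to 34.2) and 32.1% (31.5 to 32.7) of the reads of the 11 genes in WT. In KO it held 11.4% and 12.4%, with intervals that reached 11.84 and 12.85 at most. Whether reads moved between near-identical copies in the counting was not tested, since only counts per gene were analysed here.

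For Gm8126 and Gm9732 the summed near copies lay close together in both genotypes, while most near copies of Gm8127 were on the higher side in KO. The 5 copies of Gm8126 summed to 12.2 ± 1.64 CPM in WT and 12.2 ± 0.925 CPM in KO (SD, n = 2), a log2 ratio of 0.01. With Gm8126 the sum was 19.2 ± 2.79 and 14.5 ± 1.19 CPM, a log2 ratio of -0.40. Gm8126 held 36.9% and 35.9% of those reads in WT and 15.2% and 16.0% in KO.

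The 7 copies of Gm9732 summed to 17.6 ± 1.36 CPM in WT and 18.2 ± 0.288 CPM in KO, a log2 ratio of 0.05, and the sum with Gm9732 had a log2 ratio of -0.13. Gm9732 held 12.5% and 12.6% of those reads in WT and 1.44% and 0.690% in KO. The lists of copies of Gm8126 and Gm9732 share genes, since the pair is alike. For Gm8127 the 32 copies summed to 127 ± 14.6 CPM in WT and 149 ± 16.4 CPM in KO (log2 ratio 0.24). Taken singly they had a median log2 fold change of 0.43, with 29 of 32 positive. In 18 both KO libraries lay above both WT libraries (14 with total counts), beside 29.4% of all tested genes. edgeR called 0 of the copies. Before adjustment 9 copies had a p under 0.05 on the higher side and 1 on the lower side, where 1838 and 2008 of all 15636 genes had. The DESeq2 calls were 0 and 1, beside 3.04% and 4.98% of its genes, and limma-voom made 0. Summed with Gm8127 the copies came to 134 ± 14.9 and 152 ± 16.3 CPM (log2 ratio 0.18). The share of Gm8127 was 5.52% and 6.13% in WT and 2.13% and 2.54% in KO. With total counts the log2 ratio of the copies alone turned to -0.10 for Gm8126 and -0.06 for Gm9732 and stayed positive, at 0.13, for Gm8127. Shares do not depend on the scaling. In all 4 cases the KO shares lay below both WT shares, which follows in part from how the 4 genes were chosen, so nothing is read from it.

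**Figure D2:**
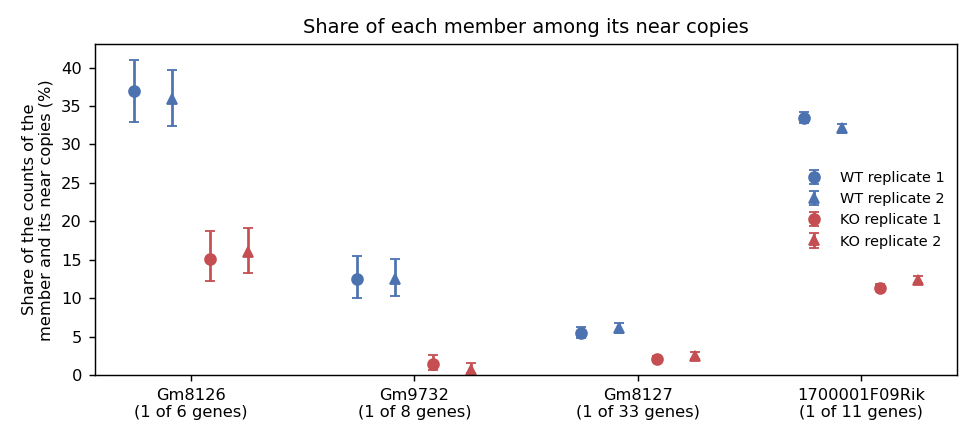
Share of each of the 4 genes in the summed counts of the gene and its near copies (vertical axis, percent), for each library. Error bars are 95% Wilson intervals and cover counting error only. The 2 KO points lie below the 2 WT points for every gene, for example 11.4% and 12.4% against 33.5% and 32.1% for 1700001F09Rik.

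**Figure D3:**
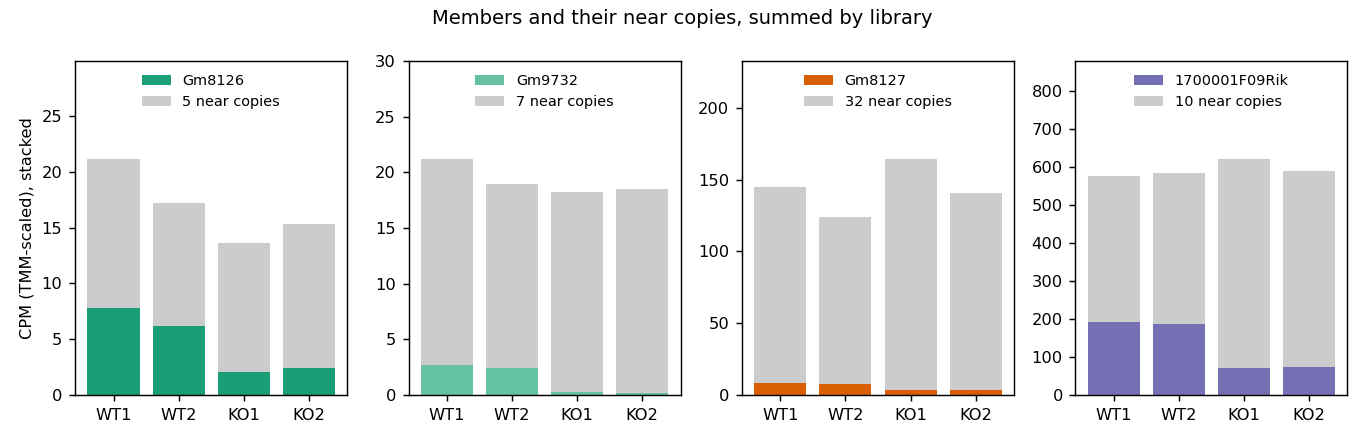
Stacked levels in TMM-scaled CPM of each of the 4 genes (colour) and its near copies (grey) in each library, with a scale of its own from 0 in each panel. The stack of 1700001F09Rik is nearly as high in WT (575 and 582 CPM) as in KO (619 and 590 CPM), while its coloured part is lower in KO.

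The wider family was searched with blastn among the GENCODE M21 transcripts, at an E-value under 1e-10 over at least 50% of the length of any of the 4. This list was added after the data had been seen. It held 139 other genes, all on chromosome 14, of which 62 lie within 3 Mb of the 4 and 69 lie over 30 Mb before them. The closest of the 4 was Gm8126 for 78 of them, Gm8127 for 36, 1700001F09Rik for 14 and Gm9732 for 11.

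Of the 133 relatives tested, edgeR called 0 higher and 1 lower in KO. Before adjustment 23 had a p under 0.05 on the higher side and 8 on the lower side, where 1838 and 2008 of all 15636 genes had. With DESeq2 the calls were 5 and 4, and with limma-voom 0 and 1. The median log2 fold change was 0.27, with 108 positive and 25 negative, against a median of 0.01 and 7945 positive and 7691 negative over all tested genes. Summed, the 139 relatives were at 1247 ± 4.08 CPM in WT and 1504 ± 7.81 CPM in KO (SD, n = 2). With the 4 included, the 143 genes summed to 1454 ± 9.74 and 1582 ± 5.71 CPM, a log2 ratio of 0.12. With total counts the ratio was 0.16 for the relatives alone, 0.01 with the 4, and the median over relatives was 0.16.

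The relatives were also read by which of the 4 they were closest to. Among the 49 tested relatives of Gm8127 or 1700001F09Rik, the median log2 fold change was 0.44, and 3 were negative. Among the 84 tested relatives of Gm8126 or Gm9732 it was 0.18, and 22 were negative. These 84 differed by identity. At 70% to 80% identity, 6 of 59 closest to Gm8126 and 1 of 7 closest to Gm9732 were negative (medians 0.24 and 0.18). At 90% to 95% identity, 8 of 10 and 3 of 3 were negative (medians -0.30 and -0.61). At 95% or more, 3 of 4 and 1 of 1 were negative (medians -0.02 and -0.62). Of the 8 relatives that were lower at an unadjusted p under 0.05, 7 were closest to Gm8126 or Gm9732, with transcripts 90.2% to 92.3% identical to them. The difference between these groups was not tested.

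Gm5930, 91.9% identical to Gm8126, was the relative that passed edgeR's test. It lies at chr14:44330442-44338584 on the minus strand. It had 96 and 146 counts in WT and 36 and 28 in KO, with no overlap. Its level was 3.75 ± 0.0931 CPM in WT and 0.883 ± 0.237 CPM in KO (SD, n = 2), or -2.09 ± 0.28 as a log2 fold change with an adjusted p of 0.0431. The call ended with DESeq2 size factors (adjusted p 0.0502), with the replicate block (0.187), without KO replicate 1 (0.142) and without KO replicate 2 (0.285), all in edgeR.

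Of the other 7 relatives that were lower before adjustment, none passed the test after it. The values of 3 of them follow, chosen after they were seen. Gm8138, the next gene after 1700001F09Rik on the chromosome and 97.2% identical to Gm8127, had 373 and 477 counts in WT and 252 and 209 in KO. Its log2 fold change was -1.08 ± 0.19, with an edgeR adjusted p of 0.0814. 1700024B05Rik, 91.1% identical to Gm8126, had 109 and 204 counts in WT and 69 and 56 in KO, and its log2 fold change was -1.48 ± 0.26 (adjusted p by edgeR 0.0809). Gm10378, 91.2% identical to Gm8126, had 23 and 20 counts in WT and 2 and 0 in KO. The ratio of its rates was 24.6 (exact 95% interval 6.40 to 209, over reads summed by genotype and for counting error only), with an edgeR adjusted p of 0.0892. On the other side of the 4, the next gene, Gm8122, had 140, 176, 259 and 252 counts, and its log2 fold change was 0.49 ± 0.18 (adjusted p by edgeR 0.173).

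Gm21103 and Gm5800, 2 abundant relatives, lay on the positive side and, like Gm8122, were chosen after their values were seen. Gm21103, 76.7% identical to Gm8126, was at 115 ± 6.86 CPM in WT and 128 ± 4.99 CPM in KO (SD, n = 2), or 0.15 ± 0.09 as a log2 change (adjusted p by edgeR 0.327). Gm5800, 89.6% identical to 1700001F09Rik, was at 59.0 ± 0.779 and 74.6 ± 3.71 CPM, or 0.34 ± 0.09 as a log2 change (adjusted p by edgeR 0.114). Gm8094, the copy of Gm8127 nearest to it in sequence at 99.6% identity, was at 22.5 ± 1.72 CPM in WT and 21.6 ± 0.425 CPM in KO. Its log2 fold change was -0.05 ± 0.11 (adjusted p by edgeR 0.804), beside -1.14 for Gm8127.

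**Figure D4:**
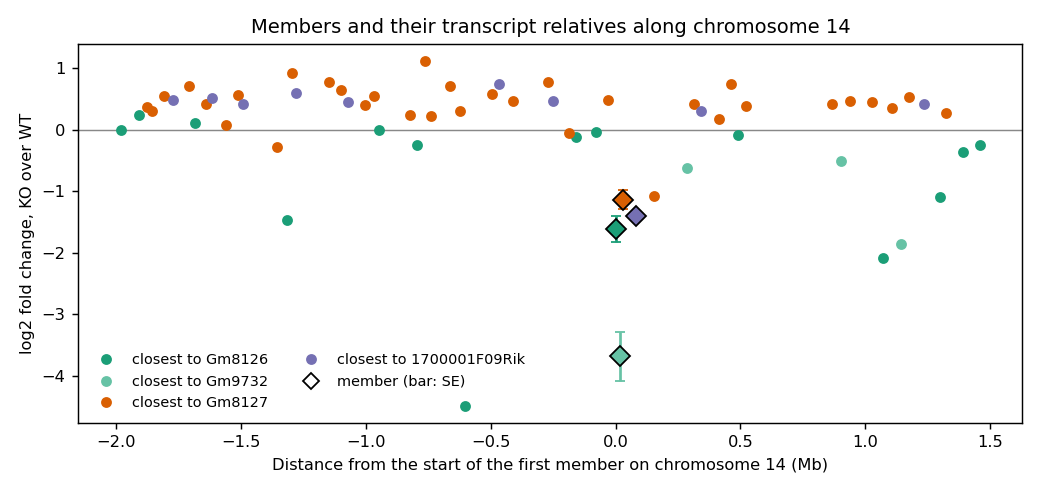
Log2 fold change of KO over WT (vertical axis) against distance from the start of Gm8126 on chromosome 14 in Mb (horizontal axis), for the 4 genes (diamonds, bars are SEs) and their transcript relatives (circles), coloured by the gene of the 4 that is closest in sequence. The 4 diamonds, at -1.14 to -3.68, lie together below 0, while most relatives around them lie above it. Relatives closest to Gm8126 or Gm9732 at 90% identity or more go mostly the other way. For example, 8 of the 10 tested at 90% to 95% identity to Gm8126 were negative.

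The neighbourhood was also read without regard to sequence. Within 1 Mb on either side of the 4, the table holds 39 other genes, of which 34 were tested. Nearly all of those tested are among the transcript relatives above, so they are not a separate set. edgeR called 0 higher and 1 lower, Gm5930. Before adjustment 10 had a p under 0.05 on the higher side and 4 on the lower side, where 1838 and 2008 of all 15636 genes had. The calls were 1 and 2 with DESeq2 and 0 and 1 with limma-voom. Their median log2 fold change was 0.35, with 23 positive and 11 negative. The 3 most abundant were Gm10376 and Gm8094, described above, and Gm10375. Gm10375, a copy of 1700001F09Rik, was at 24.5 ± 0.262 CPM in WT and 30.2 ± 0.114 CPM in KO (SD, n = 2), or 0.30 ± 0.10 as a log2 change (adjusted p by edgeR 0.149).

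The Speer genes, a multi-copy family of the mouse testis that encodes glutamate-rich proteins, were read in place of the planned list of protein relatives. Their likeness to the 4 in protein sequence was not tested. None of them is among the transcript relatives. All 10 were tested, and edgeR called 0. Before adjustment 3 had a p under 0.05 on the higher side and 1 on the lower side, where 1838 and 2008 of all 15636 genes had. DESeq2 made 1 call, higher, beside 3.04% of its genes, and limma-voom 0. The median log2 fold change of the Speer genes was 0.26. Speer2, the most abundant, was at 53.8 ± 2.99 CPM in WT and 44.9 ± 3.64 CPM in KO (SD, n = 2), or -0.26 ± 0.10 as a log2 change (adjusted p by edgeR 0.198). Speer4c was at 26.1 ± 0.996 and 38.7 ± 4.06 CPM, or 0.57 ± 0.12 as a log2 change (adjusted p by edgeR 0.0892). Speer4b was at 21.7 ± 0.113 and 28.0 ± 1.62 CPM, or 0.37 ± 0.11 as a log2 change (adjusted p by edgeR 0.126).

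The genes whose pattern over the 4 libraries was most like that of the summed 4 were found by the root mean square distance of log2(CPM + 1), centred on each gene's mean. Adamtsl1, a secreted relative of ADAMTS proteases without the protease part, was the nearest, at a distance of 0.0847 on the log2 scale. It had 9.60 and 9.16 CPM in WT and 2.68 and 2.48 CPM in KO. Chst1, a sulfotransferase that acts on carbohydrates, followed at a distance of 0.0878, with 18.1 and 16.5 CPM in WT and 6.45 and 5.57 CPM in KO. The next were 9930111J21Rik1 at 0.0915, Adad2 at 0.104 and Tdrd1 at 0.105. Adad2, a double-stranded RNA-binding protein of male germ cells, had 10.7 and 11.2 CPM in WT and 4.17 and 4.11 CPM in KO. Tdrd1, a tudor protein of the piRNA pathway in germ cells, had 118 and 139 CPM in WT and 49.0 and 49.1 CPM in KO. 9930111J21Rik1 had 2.23 and 1.86 CPM in WT and 0.0584 and 0.0255 CPM in KO, from 2 and 1 counts in the KO libraries. Its fitted log2 fold change was -5.52, far larger than that of the sum. The added 1 CPM shrinks the step of a gene this low. With 4 libraries in 2 groups, likeness here means little more than a similar step between genotypes in log2(CPM + 1).

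Markers of the cell types that a testis holds were read beside these levels. Each list below was found in full in the table, and no marker was at 0 in all 4 libraries. The 8 spermatocyte markers summed to 1820 and 1877 CPM in WT and 1503 and 1572 CPM in KO, with a median log2 fold change of -0.52. Sycp2, of the synaptonemal complex, stood at -0.45 ± 0.13 as a log2 change (adjusted p by edgeR 0.127), and Pgk2, a glycolytic enzyme of meiotic and later cells, at 0.16 ± 0.17 (0.602). The 8 spermatogonia markers summed to 76.5 and 102 CPM in WT and 67.5 and 67.7 CPM in KO, with a median of -0.66. In each of these lists 6 markers were negative and 2 positive. edgeR called 1 marker lower in each and 0 higher, beside 0.454% of all tested genes in each direction. Both called markers are named for that reason after their values were seen. Before adjustment 5 spermatocyte and 4 spermatogonia markers had a p under 0.05, all lower, where 2008 of all 15636 tested genes had. DESeq2 called 5 and 2 of the markers lower, beside 4.98% of its genes. limma-voom called 1 and 0, beside 0.441% of all genes. The edgeR calls were Id4 and Piwil1. Id4, a regulator of spermatogonial stem cells, had a log2 change of -1.05 ± 0.15 (adjusted p by edgeR 0.04998). Piwil1, a piRNA-binding protein of meiotic and round cells, stood at -1.61 ± 0.10 (adjusted p by edgeR 0.00713).

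The later germ cell lists did not separate the genotypes in the same way. The 6 round spermatid markers summed to 2451 and 1861 CPM in WT and 2323 and 2538 CPM in KO, with a median log2 fold change of 0.25. In 5 of the 6 both KO libraries lay above both WT libraries, a pattern found in 29.4% of all tested genes. The exception was Gapdhs, the most abundant, at 1032 and 489 CPM in WT and 632 and 826 CPM in KO. The 7 elongating spermatid markers ranged widely within a genotype, from 10017 and 3832 CPM in WT to 4910 and 7670 CPM in KO, with a median of -0.14. In both lists edgeR called 0 genes. Before adjustment 5 round spermatid markers had a p under 0.05, all higher, and 0 elongating spermatid markers had. Of all 15636 tested genes, 1838 were higher at that p. DESeq2 called 1 round spermatid marker higher, beside 3.04% of its genes, and 0 of the elongating list. limma-voom called 0 in either list.

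Somatic markers were low. Sertoli markers summed to 79.9 and 35.1 CPM in WT and 24.2 and 31.1 CPM in KO (median log2 fold change -0.75, 6 of 7 tested). The 6 Leydig markers summed to 15.6 and 8.82 against 6.68 and 5.34 CPM (median -0.88), and the 4 peritubular and vascular markers to 15.02 and 22.4 against 11.6 and 12.4 CPM (median -0.65). The 6 macrophage markers summed to 15.9 and 5.57 CPM in WT and 26.1 and 14.9 CPM in KO (median 0.97). edgeR and limma-voom called 0 genes in these 4 lists, and DESeq2 called 1 Leydig marker lower, beside 4.98% of its genes. At an unadjusted p under 0.05, 2 Sertoli, 2 Leydig and 2 peritubular and vascular markers were lower and 1 macrophage marker was higher. Of all 15636 tested genes, 2008 were lower and 1838 higher at that p. The spermatocyte, spermatogonia, Sertoli, Leydig and peritubular sums were lower in both KO libraries, as the 4 genes were, and their part in the lower level of the 4 was not tested.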

How the data were processed

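Poly(A) RNA of adult testis was sequenced in 2 WT and 2 KO libraries. The deposited table holds whole-number counts per Ensembl gene, not normalized by the authors as far as the values show. Of tools, the submitters' processing notes name RSEM, StringTie 1.3.1, HISAT2 2.1.0, Bowtie2 2.2.8 and fastp 0.18.0, with no role or order. The build, the annotation, strandedness and the handling of reads with several matches were not given in the sources used here. Whether the counts are rounded estimates is not given either.

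The 4 genes and all lists were chosen with earlier results of these data known. The transcript relatives were added after the files had been seen. Names, positions and transcripts came from GENCODE M21 (GRCm38), which matched 22219 of 22274 identifiers. No protein table was given, so the planned list of protein relatives was replaced by genes with Speer symbols.

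Genes were kept with filterByExpr (minimum count 10, minimum total 15), which left 15636 and set aside 6638. edgeR 4.0.16 with TMM factors of 1.00, 1.08, 0.987 and 0.940 (WT replicates 1 and 2, KO replicates 1 and 2) gave fitted fold changes and two-sided quasi-likelihood tests of genotype, Benjamini-Hochberg adjusted over all tested genes at 0.05. An SE is the size of the log2 fold change divided by the square root of F. Sums of genes were described and not tested, and 2 libraries against 2 could not give an exact permutation p below 0.333. Replicates were checked for duplication: chi-square per degree of freedom was 42.8 for the WT pair and 10.1 for the KO pair. The fitting code was tested on simulated data.

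Text names the 4 genes, Fam170a, every gene past the threshold in the neighbourhood and Speer lists with the 3 most abundant of each, the 5 genes nearest in pattern and up to 2 markers per list. Other genes are marked as chosen after their values were seen. Alternatives were other scalings, filters, DESeq2 1.42.0 and limma-voom (limma 3.58.1), a replicate block, leaving out each library, a threshold of 0.01, a 3 Mb neighbourhood and the 4 genes summed into 1 row.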

Additional observations from a re-analysis of the deposited data

How the results depend on the processing

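The summed level of the 4 genes stayed lower in KO in every setting tried. Its log2 ratio of -1.41 became -1.52 with total counts, a scaling that shifted the median over tested genes from 0.01 to -0.10, and ran from -1.45 to -1.38 when each library was left out in turn. The count of genes called over the whole table moved more. It was 142 in the reported fit (71 higher, 71 lower), 82 with total counts (32 higher, 50 lower), 451 without a filter (171 and 280), 1011 with DESeq2 (383 and 628) and 18 at a threshold of 0.01. It was 21 to 3408 with 1 library left out: 3408 and 872 when WT replicate 1 or 2 was dropped, and 24 and 21 when KO replicate 1 or 2 was. Such fits take the spread of the lone library from the other pair.

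Among the genes within 1 Mb, 1 call became 0 with DESeq2 size factors, 2 without a filter, 3 with DESeq2, 0 at a threshold of 0.01 and 0 to 5 with 1 library left out. Among the transcript relatives, 1 call became 0, 5, 9 and 0 under the same settings and 0 to 15 with 1 library left out. For the Speer genes, 0 calls became 1 with DESeq2 and 0 to 3 with 1 library left out. The cause was not tested. Of the alternative fold changes of the 4 genes, judged on value and not on call, and of Gm5930, 54 stayed, 2 moved with total counts (Gm8127 to -1.25 and 1700001F09Rik to -1.51) and 4 of Gm5930 lost its call. The count of the 4 genes past the threshold was 3 with DESeq2 size factors, upper quartile factors, total counts or limma-voom, 1 at a threshold of 0.01 or without KO replicate 2, and 0 without KO replicate 1 or with the replicate block. Relatives by protein at other E-values were not run.

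With the replicate number as a block, 9 genes were called over the whole table, 0 of the genes within 1 Mb and 0 of the transcript relatives. The labels give the samples a number only: deviations of same-numbered libraries correlated at -0.24. A crossed pairing, added after seeing the data, called 902 genes. Counts of 9 and 5 reads for Gm9732 in KO limit the precision of its fold change, and shared sequence limits the separate levels of all 4 genes.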

Other observations

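Clone-named genes outside the 4 (symbols of Gm, BC or AC with a number, or with Rik) were, as a class, more often higher than lower in KO. Of 1105 tested, edgeR called 26 higher (2.35%) and 9 lower (0.814%), beside 0.454% of all tested genes in each direction. At an unadjusted p under 0.05, 271 were higher and 69 lower, beside 1838 and 2008 of all 15636 tested genes. The median log2 fold change of the class was 0.19, with 779 positive and 326 negative. The class includes the transcript relatives of the 4 described above. That median lay above that of all genes (0.01). The 4 genes on chromosome 14 were chosen for being lower in KO, so nothing is read from their direction beside this class.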
